A study of Mus musculus with 16 samples.

Results

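The 34 genes described here belong to the cytokine and NF-kB pathways. They were listed by name, with earlier results of these data known: 14 cytokines and chemokines, 4 receptors, 5 NF-kB subunits, 5 proteins of the IkB family, 4 feedback and survival regulators and 2 adhesion molecules. A probe was found for 32 of them through the RefSeq accession printed on the array, and 22 were bright enough to be tested, among 17771 genes tested in all. The RNA was that of the cell line HL-1, which has features of mouse atrial muscle cells, and was hybridised to 16 single-colour Agilent arrays. Cells had been kept for 6 h with 100 nM dexamethasone and 10 nM estradiol together (Dex+E2), with 100 nM dexamethasone (Dex, a synthetic glucocorticoid), with 10 nM estradiol (E2, an estrogen) or with the PBS vehicle, at 4 arrays per label. All 4 groups were grown in the same Claycomb medium, and the line derives from an atrial tumour of a transgenic mouse, which limits it as a model of adult heart muscle. The series design names 4 independent experiments. Nothing further in the labels separates the cultures, so p-values measure the spread between these arrays. In bulk RNA of this kind, fewer cells of a type and less RNA per cell cannot be told apart.

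NF-kB is a family of transcription factors built from the subunits Rela, Relb, Rel, Nfkb1 and Nfkb2. In resting cells IkB proteins such as Nfkbia hold the dimers back, and receptors for TNF or for microbial products release them by having the IkB proteins degraded. The released dimers bind kappaB sites and switch on chemokines, cytokines, adhesion molecules and also their own inhibitors, among them Nfkbia, Nfkbie, Tnfaip3 and Tnip1, which close the loop. Ligand-bound glucocorticoid receptor is known to lower many of these inflammatory genes and to raise Nfkbia in several cell types. Cardiac muscle cells are known to make chemokines and cytokines of this pathway under stress.

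The stretches of promoter that hold kappaB motifs are shown for the called members, because NF-kB subunits are known to recognise this motif and these are the genes whose levels differed. RefSeq promoters (build GRCm38.p6) were searched over the 250 bases before each gene's start, on both strands, for the kappaB consensus motif and for the hexamer AGAACA, a part of the glucocorticoid response element. The kappaB motif was present for 14 of the 25 members that had a promoter entry, a share of 56.0%, against 2225 of 27025 genes with an entry, a share of 8.23%. AGAACA was present for 2 of 25 members (Csf1 and Tnfaip3), against 4912 of 27025 genes (18.2%). Of the 6 members called in a comparison below, 4 had an entry, and all 4 held a kappaB match and 0 held AGAACA. A kappaB match was common among the tested members, called or not, at 11 of the 18 with an entry (61.1%). The lines below run 5′ to 3′ on the strand of the gene, with the kappaB matches in capitals. They lie at chr5:92348964-92349068 (minus strand, 2 matches) for Cxcl10, chr11:54962969-54963018 (minus strand) for Tnip1, chr12:55492648-55492696 (minus strand) for Nfkbia and chr17:45555574-45555623 (plus strand) for Nfkbie. A match is a description of the letters and not a measured binding site.
Cxcl10: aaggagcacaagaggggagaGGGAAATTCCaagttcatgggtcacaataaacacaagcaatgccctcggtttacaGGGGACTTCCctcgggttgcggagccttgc
Tnip1: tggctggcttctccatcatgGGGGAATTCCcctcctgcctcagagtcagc
Nfkbia: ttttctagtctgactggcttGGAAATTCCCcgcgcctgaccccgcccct
Nfkbie: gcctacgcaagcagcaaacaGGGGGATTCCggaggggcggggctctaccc

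Levels are given as log2 of the background-subtracted spot signal minus the 75th percentile of the array, which itself lay between 402.1 and 556.6 signal units. Levels of different probes cannot be set against each other, so each gene is compared only with itself across arrays. Between 58.6% and 65.6% of the 41174 probes were well above background per array, and 0 spots were saturated. Array Vehicle 1 stood apart, with correlations of 0.973 to 0.982 with every other array. Of 16 cardiomyocyte markers, 15 were well above background on all 16 arrays and Tnni3 on 15. Of 12 leukocyte markers, 3 were well above background on all 16 arrays and Ptprc, Adgre1, Itgam and Lyz2 on 0. The counts were 5 of 9 for fibroblast markers and 3 of 8 for endothelial markers, with Pecam1, Cdh5 and Tie1 on 0 arrays. Slides crossed the labels: arrays 1 and 2 of vehicle shared slide 1 with arrays 1 and 2 of Dex, arrays 1 and 2 of E2 lay on slide 2, and arrays 1 and 2 of Dex+E2 lay on slide 3. Arrays 3 and 4 of a label always shared a slide, with 4 in the next position, so that number and position cannot be told apart. The labels do not say whether the number is that of the independent experiment. If it is, the 4 pairs of arrays 4 and 3 all compare the same 2 experiments, and their p-values measure no spread between experiments.

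The level of Per1, a clock gene known to be induced by glucocorticoids, did not follow the labels. Its level was 1.86, 1.82 and 1.95 on Dex+E2 1, 2 and 4, and 1.91, 1.81 and 1.99 on Dex 1, 2 and 4. It was also 1.95 on E2 4 and 1.75 on Vehicle 4. The other 8 arrays lay between -1.29 and -0.75, and they included Dex+E2 3 (-1.11) and Dex 3 (-1.15). The nearest values across the gap were 1.75 on Vehicle 4 and -0.75 on Vehicle 2. Arrays Vehicle 4, E2 4, Dex 3 and Dex+E2 3 thus went against their labels for this gene. Per1 was not alone among the 6 genes of a glucocorticoid check list, which was chosen with earlier results of these data known. Klf15, Map3k6 and Fkbp5 were also called higher on the arrays numbered 4 than on those numbered 3, by 1.92 ± 0.06, 2.17 ± 0.08 and 0.81 ± 0.07 (SE). Tsc22d3 was not called (0.39 ± 0.07, limma adjusted p = 0.0523). Nr3c1, which codes for the glucocorticoid receptor itself, had a negative difference and was not called (-0.36 ± 0.07, limma adjusted p = 0.065). Whether Vehicle 4, E2 4, Dex 3 and Dex+E2 3 hold the RNA that their labels name cannot be told from the data used here. Every comparison of labels over 16 arrays rests on those labels, and each comparison of labels is given with and without these 4 arrays. Per1 is itself a readout of these arrays, so the split by Per1 is used for description only. The tests compare arrays by label and number. Arrays numbered 4 were compared with arrays numbered 3 of the same labels. With no array in common with that comparison, Dex was compared with vehicle and Dex+E2 with E2 on the arrays numbered 1 and 2. All 4 arrays numbered 4 had high Per1 and all 4 numbered 3 had low Per1, while Per1 followed the labels on the arrays numbered 1 and 2. These comparisons were chosen with this known, so they are not independent of the Per1 level.

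Of the 34 genes, 19 were well above background on every array where they were measured, and 7 on none. The 7 were the chemokines Cxcl2 and Cxcl5, the cytokines Il1b and Tnf, the interleukin-1 receptor antagonist Il1rn, the lipopolysaccharide receptor Tlr4 and the adhesion molecule Icam1. For Ccl7, a monocyte chemokine, the brighter of its 2 probes was well above background on 1 array, Dex+E2 1, at -4.62, against -8.29 to -6.97 on the other 15 arrays. Its second probe was well above background on 3 arrays and reached -5.38. Ccl2, the main monocyte chemokine, was well above background on 7 arrays, and Rel, the c-Rel subunit, also on 7. For Lif and Nfkb1 no probe was matched by accession. These 12 genes were not tested. Rel was well above background on both E2 arrays numbered 1 and 2, at -4.70 and -4.19, and on neither Dex+E2 array of those numbers, at -7.05 and -6.80. Measured against the lowest signal counted as above background, Rel was at least 2.46-fold lower on those Dex+E2 arrays than on those E2 arrays, which lay on different slides. The other arrays did not show this, with -5.74 and -6.31 on Dex+E2 3 and 4 and -6.33 and -6.29 on E2 3 and 4. Ccl2 was well above background on 0 of 4 Dex+E2 arrays and on 3 of 4 vehicle arrays. By the same bound its mean was at least 1.04-fold lower with Dex+E2. The arrays overlapped, at -6.24, -6.02, -6.01 and -6.20 with Dex+E2, against -5.48, -5.65, -5.99 and -6.33 with vehicle.

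**Figure D1:**
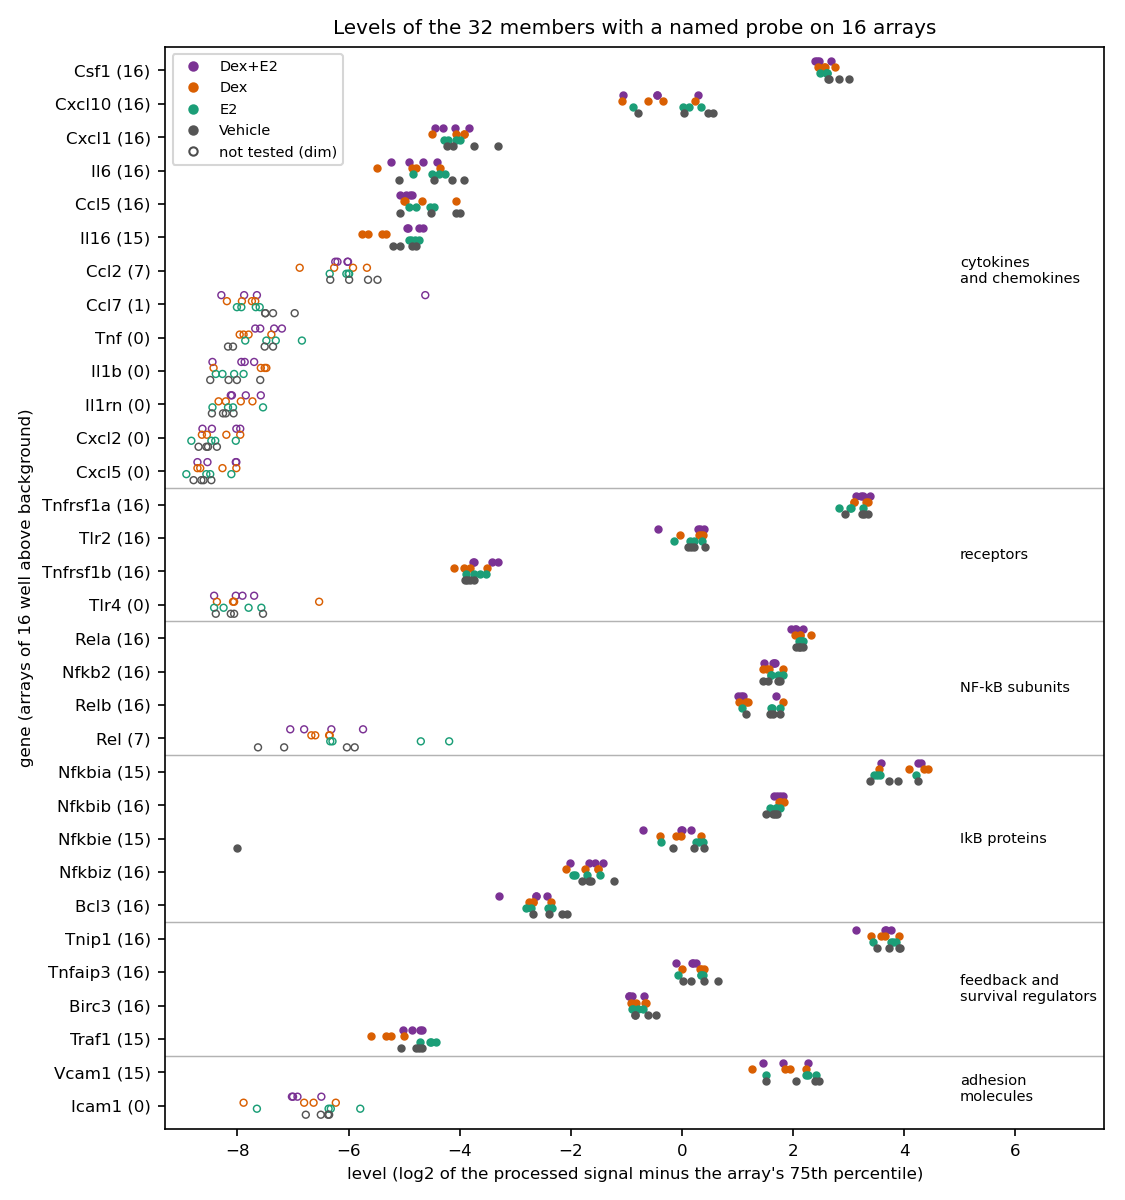
Levels of the 32 genes with a probe on the 16 arrays (x axis, log2 after subtraction of each array's 75th percentile; y axis, gene, with the number of arrays well above background). Filled points are the 22 genes tested and open points the 10 that were too dim. Levels of different genes cannot be compared on this axis, and the single Nfkbie point near -8 is array Vehicle 1.

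Between the arrays numbered 4 and the arrays numbered 3, 6 of the 22 tested genes were called (limma, Benjamini-Hochberg over 17771 genes, adjusted p under 0.05). The background was 552 genes called, or 3.11% of those tested. The subunit Relb, the chemokine Cxcl10, the adhesion molecule Vcam1, the inhibitor Nfkbie and the A20-binding inhibitor Tnip1 were lower on the arrays numbered 4, and the inhibitor Nfkbia was higher. Over all genes 267 were called lower (1.5%) and 285 higher (1.6%). Of the 22 genes, 17 had a negative difference, with a median of -0.22, against a median of -0.04 and 62.0% negative over all genes tested. Values in the following paragraphs are given for Dex+E2, Dex, E2 and vehicle in this order. Where arrays 4 and 3 are said not to overlap, the share of all genes for which this held is not given here. A lack of overlap is thus a description, and adds no support for a gene that was not called.

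Among cytokines and chemokines, all 6 tested genes had a negative difference between arrays 4 and 3, and 1 was called. Cxcl10, which draws activated T cells, had levels of -1.06, -1.08, -0.88 and -0.79 on the arrays numbered 4, against 0.28, 0.24, 0.34 and 0.03 on the arrays numbered 3. The 4 lower arrays did not overlap the 4 others, and the difference was -1.17 ± 0.10 (SE, n = 4 pairs), a 2.25-fold lower level, with a limma adjusted p of 0.00347. Il6, an inducer of the acute-phase response, had levels of -5.23, -5.49, -4.84 and -5.09 on the arrays numbered 4, against -4.40, -4.36, -4.27 and -4.46 on the arrays numbered 3. These did not overlap either, but the difference of -0.79 ± 0.16 was not called (limma adjusted p = 0.0662). The chemokines Ccl5 and Cxcl1 differed by -0.26 ± 0.16 and -0.20 ± 0.13, the macrophage growth factor Csf1 by -0.15 ± 0.08 and Il16, a CD4 ligand, by -0.17 ± 0.15, none of them called.

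Among receptors, 0 of 3 tested genes were called. Tnfrsf1a, the main TNF receptor, had levels of 3.22, 3.1, 3.26 and 3.28 on the arrays numbered 4, against 3.14, 3.1, 3.05 and 2.94 on the arrays numbered 3. The sets overlapped. The second TNF receptor Tnfrsf1b differed by 0.07 ± 0.11, and Tlr2, a receptor for bacterial lipoproteins, by -0.31 ± 0.13.

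Among NF-kB subunits, 1 of 3 tested genes was called. Relb, the subunit of the non-canonical arm, had levels of 1.01, 1.18, 1.08 and 1.16 on the arrays numbered 4, against 1.69, 1.81, 1.77 and 1.76 on the arrays numbered 3. The 4 pairs agreed closely, between -0.69 and -0.60, and the difference was -0.65 ± 0.05 (1.57-fold lower, limma adjusted p = 0.00284). Nfkb2, the partner of Relb, differed by -0.20 ± 0.05 without overlap of the arrays and was not called (limma adjusted p = 0.131). Rela, the transactivating subunit of the canonical arm, lay between 1.97 and 2.32 on all 16 arrays and differed by -0.08 ± 0.06. Its second probe differed by 0.03.

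Among IkB proteins, 2 of 5 were called, in opposite directions. Nfkbia, the fast-turnover inhibitor of Rela dimers, had levels of 4.08, 4.21 and 4.25 on array 4 of Dex, E2 and vehicle, against 3.58, 3.55, 3.45 and 3.39 on the arrays numbered 3. The difference was 0.72 ± 0.09 over 3 pairs (1.64-fold higher, limma adjusted p = 0.0244). The spot on Dex+E2 4 carried an outlier flag and was left out. It read 3.74, and with flagged spots kept the difference was 0.58 ± 0.12 with an adjusted p of 0.0799. Nfkbie, the inhibitor IkB-epsilon, had levels of -0.70, -0.40, -0.37 and -0.17 on the arrays numbered 4, against 0.17, 0.34, 0.37 and 0.22 on the arrays numbered 3. These sets did not overlap (difference -0.68 ± 0.09, 1.61-fold lower, limma adjusted p = 0.0154). Bcl3, a nuclear IkB protein, differed by -0.51 ± 0.12 without overlap and was not called (limma adjusted p = 0.0878). Nfkbib differed by 0.07 ± 0.05 and the nuclear protein Nfkbiz, a coactivator at secondary response genes, by 0.20 ± 0.10.

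Among feedback and survival regulators, 1 of 4 was called. Tnip1, which works with the ubiquitin-editing enzyme A20, had levels of 3.14, 3.40, 3.44 and 3.51 on the arrays numbered 4, against 3.77, 3.90, 3.85 and 3.72 on the arrays numbered 3. The difference was -0.44 ± 0.08, with a limma adjusted p of 0.0498, just inside the threshold. Tnfaip3, which codes for A20 itself, had levels of -0.11, 0.00, -0.08 and 0.02 on the arrays numbered 4, against 0.18, 0.35, 0.37 and 0.16 on the arrays numbered 3. These did not overlap, and Tnfaip3 was not called (-0.31 ± 0.07, limma adjusted p = 0.0816). The inhibitor of apoptosis Birc3 differed by -0.24 ± 0.07, also without overlap, and the signalling adaptor Traf1 by -0.16 ± 0.17. Vcam1, which binds integrins of leukocytes, had levels of 1.46, 1.26, 1.51 and 1.52 on the arrays numbered 4, against 2.27, 2.24, 2.23 and 2.05 on the arrays numbered 3. The difference was -0.76 ± 0.08 (1.70-fold lower, limma adjusted p = 0.0086), and -0.42 on its second, dimmer probe.

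**Figure D2:**
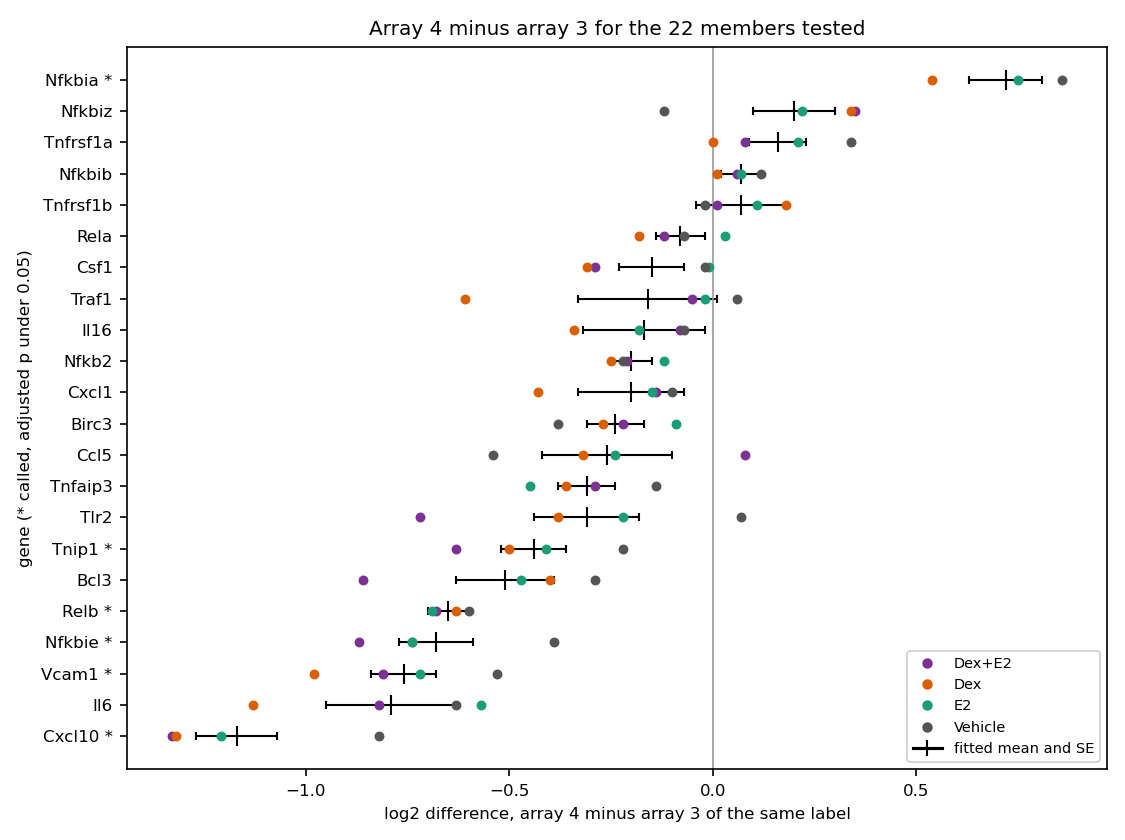
Difference of array 4 minus array 3 (x axis, log2) for the 22 tested genes (y axis, ordered by the fitted difference). Points are the pairs of the 4 labels, bars the fitted mean ± SE and stars the called genes. Cxcl10 is lowest at -1.17, and Nfkbia is highest at 0.72.

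Only Relb and Cxcl10 stayed called when any single pair of arrays was left out. The count of called genes was 3 without the Dex pair, 2 without the E2 pair, 3 without the Dex+E2 pair and 6 without the vehicle pair. Over all genes, 154, 153, 191 and 570 were called in the same order, against 552 with all pairs; the members' count was lowest where that of all genes was. The summed level of endothelial markers was 2.19 to 2.25 on the arrays numbered 4 and 1.83 to 2.17 on those numbered 3 (log2), with 3 of 8 markers well above background on all arrays. Of these 3, Kdr was called higher and the other 2, Vwf and Egfl7, had a negative difference, with a median of -0.09. The fibroblast sum was 4.86 to 5.04 on the arrays numbered 4 and 5.07 to 5.21 on those numbered 3, with 5 of 9 markers. This sum is mostly the signal of 1 probe, that of Col1a1 (mean level 5.06), as the next marker, Col3a1, averaged 2.45. Of the 5 fibroblast markers tested, 0 were called. The part of the endothelial or the fibroblast sum in these differences was not tested. Leukocyte sums overlapped, at -1.82 to -1.51 on the arrays numbered 4 and -1.97 to -1.32 on those numbered 3.

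On the arrays numbered 1 and 2, where Per1 followed the labels, Dex and vehicle shared a slide. Between them 4 of the 22 genes were called, against 419 genes or 2.36% of all tested. Cxcl10, Relb and Vcam1 were lower with Dex and Nfkbia was higher. Over all genes 210 were called lower (1.18%) and 209 higher (1.18%), a split that was 45 lower and 163 higher under normexp, a model-based background correction tried as an alternative. Cxcl10 had levels of -0.35 and -0.62 on the Dex arrays, against 0.47 and 0.55 on the vehicle arrays, a difference of -0.99 ± 0.11 (SE, 1.99-fold lower, limma adjusted p = 0.00798). Relb had 1.15 and 1.02 on the Dex arrays, against 1.63 and 1.59 on the vehicle arrays (-0.52 ± 0.07, limma adjusted p = 0.0176). Vcam1 had 1.95 and 1.86 on the Dex arrays, against 2.47 and 2.39 on the vehicle arrays (-0.53 ± 0.08, limma adjusted p = 0.0423). Nfkbia had 4.42 and 4.35 on the Dex arrays, against 3.72 and 3.89 on the vehicle arrays (0.58 ± 0.08, 1.49-fold higher, limma adjusted p = 0.0163). For each of these the Dex and vehicle arrays did not overlap, and the share of all genes for which this held is not given here.

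The next genes in this comparison were not called. Tnip1 had 3.66 and 3.59 on the Dex arrays, against 3.90 and 3.92 on the vehicle arrays (-0.29 ± 0.06, limma adjusted p = 0.0586). Bcl3 differed by -0.57 ± 0.13 (limma adjusted p = 0.09), Il6 by -0.80 ± 0.19 (0.0994) and Csf1 by -0.34 ± 0.08 (0.105). Nfkbie could not be compared here in a useful way: it had -0.01 and -0.10 on the Dex arrays, against -8.01 and 0.39 on the vehicle arrays, and the spot at -8.01, on Vehicle 1, was not well above background although it carried no outlier flag. Of the 22 genes, 16 had a negative difference, with a median of -0.23, against -0.03 and 56.4% negative over all genes. Fitted alone, without the Dex+E2 and E2 arrays in the estimate of the spread, the same 4 Dex and vehicle arrays gave 0 called members and 45 called genes in all, with 2799 genes at an unadjusted p under 0.05. The differences were the same, with limma adjusted p of 0.081 for Cxcl10, 0.102 for Nfkbia, 0.124 for Relb and 0.104 for Vcam1. Without Vehicle 1 the count of called members was 7, adding Csf1, Nfkbie and Tnip1 to the 4, while 2239 of all genes were called. It was 4 of 511 genes without Vehicle 2, with Nfkbie in place of Vcam1, 1 of 31 without Dex 1 (Cxcl10) and 0 of 28 without Dex 2. Nfkbie was lower with Dex without Vehicle 1 (-0.44 ± 0.08), and higher without Vehicle 2, where its spot at -8.01 stood alone for vehicle. Endothelial sums were 2.26 and 2.32 on the Dex arrays, against 2.06 and 1.89 on the vehicle arrays, and their part was not tested.

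On the same numbers, Dex+E2 and E2 lay on different slides, so that label and slide cannot be told apart. Between them 2 of the 22 genes were called, against 579 genes or 3.26% of all tested. These were Nfkbia, higher with Dex+E2, and Relb, lower. Over all genes 386 were called higher (2.17%) and 193 lower (1.09%). That split was 335 higher and 328 lower with quantile normalization and 5073 higher and 4609 lower with normexp. With quantile normalization Vcam1 was called lower as well. Nfkbia had 4.24 and 4.30 on the Dex+E2 arrays, against 3.57 and 3.51 on the E2 arrays (0.73 ± 0.08, 1.66-fold higher, limma adjusted p = 0.00582). Relb had 1.09 and 1.07 on the Dex+E2 arrays, against 1.62 and 1.60 on the E2 arrays (-0.53 ± 0.07, limma adjusted p = 0.0138), and its difference turned to 0.13 under normexp.

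Cxcl10, Vcam1 and Tnfrsf1a missed the threshold in this comparison. Cxcl10 had -0.45 on each Dex+E2 array, against 0.01 and 0.12 on the E2 arrays (-0.51 ± 0.11, limma adjusted p = 0.0548). Vcam1 had 1.81 on Dex+E2 1, against 2.26 and 2.41 on the E2 arrays (-0.53 ± 0.10, limma adjusted p = 0.0586). Its spot on Dex+E2 2 was flagged and left out. It read 1.58, and with flagged spots kept Vcam1 was called (-0.64 ± 0.10, limma adjusted p = 0.0264). Tnfrsf1a had 3.25 and 3.38 on the Dex+E2 arrays, against 2.82 and 3.03 on the E2 arrays (0.39 ± 0.09, limma adjusted p = 0.0686). Of the 22 genes, 15 had a negative difference, with a median of -0.11, against 0.06 and 40.4% negative over all genes. Leaving out 1 array left Nfkbia alone as the called member in 3 of 4 cases, and 0 without Dex+E2 2, with 121 to 262 of all genes called. Endothelial sums were 2.33 and 2.28 on the Dex+E2 arrays, against 1.85 and 1.96 on the E2 arrays, and their part was not tested.

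The comparison of arrays 4 with arrays 3 shares no array with either comparison on the arrays numbered 1 and 2. Its sign matched that of Dex against vehicle for 19 of 22 genes and that of Dex+E2 against E2 for 20 of 22. In 18 of 22 genes the sign was the same in all 3, with 14 lower and 4 higher. The 4 that were higher in all 3 were Nfkbia, Nfkbib, Tnfrsf1a and Tnfrsf1b, and among the 14 were all tested cytokines and chemokines other than Cxcl1, the 3 tested subunits and the 4 feedback and survival regulators. Most of these single differences were not called. All 3 comparisons set arrays of high Per1 against arrays of low Per1, and the share of agreeing signs over all genes is not given here. The agreement is therefore not shown to be particular to these genes. Under normexp, the split on the arrays numbered 1 and 2 became 11 of 22 negative in each comparison, while between arrays 4 and 3 it was 18 of 22.

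**Figure D3:**
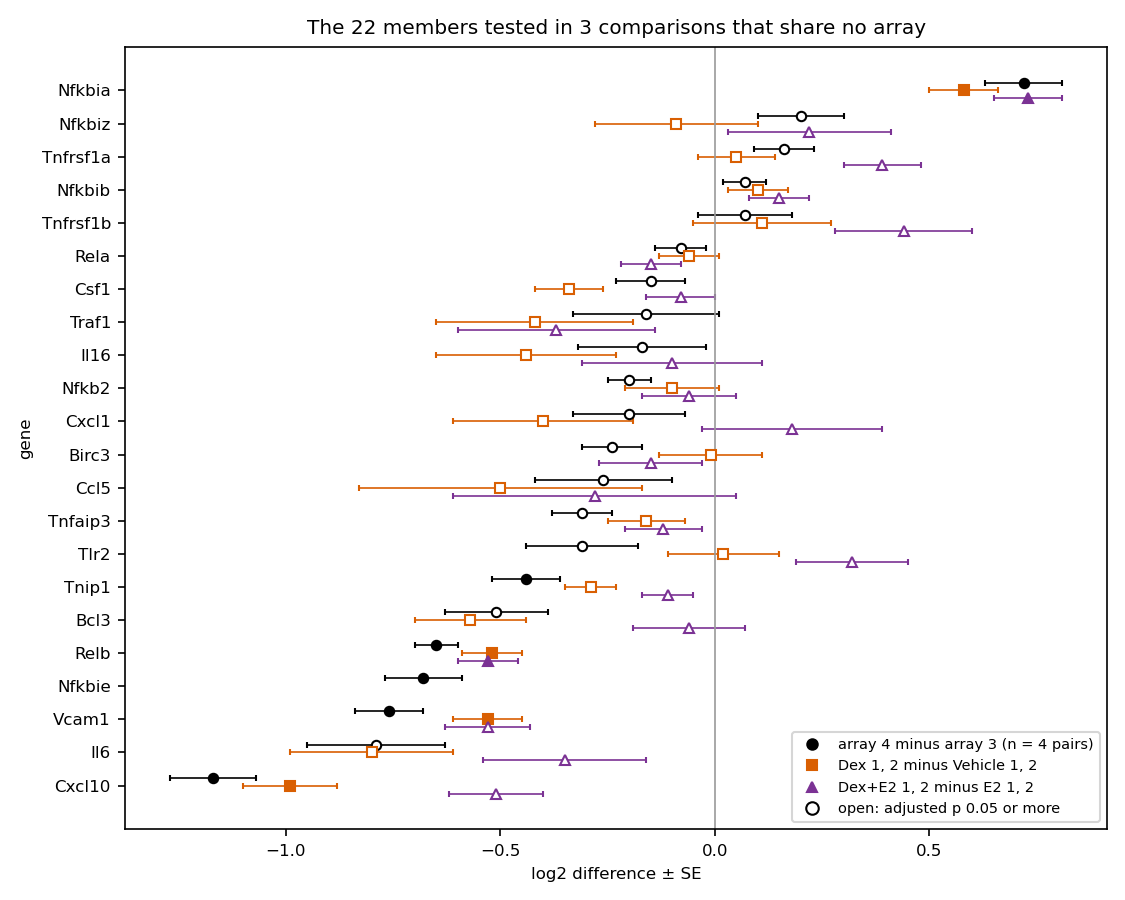
Log2 differences ± SE (x axis) of the 22 tested genes (y axis) in 3 comparisons with no array in common. Circles are array 4 minus array 3, squares Dex minus vehicle and triangles Dex+E2 minus E2 on the arrays numbered 1 and 2, and filled symbols are called genes. Relb and Nfkbia are filled in all 3, at -0.65, -0.52 and -0.53 and at 0.72, 0.58 and 0.73. Nfkbie is drawn for arrays 4 and 3 only.

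Over all 16 arrays, taken by their labels, 0 of 22 genes were called by limma in any of 6 comparisons. Dex+E2 was set against vehicle, Dex and E2 in turn, Dex and E2 were each set against vehicle, and the interaction of Dex with E2 was fitted. The background was 0 of 17771 genes in each, or 0.0%, with 989, 567, 714, 1933, 682 and 661 genes at an unadjusted p under 0.05 in the same order, and 3, 2, 0, 3, 1 and 1 of the 22. The genes called above spanned both levels within every label. Nfkbia averaged 4.04 ± 0.40 with Dex+E2 (SD, n = 3), 4.10 ± 0.40 with Dex, 3.68 ± 0.35 with E2 and 3.81 ± 0.36 with vehicle (n = 4 each). Relb averaged 1.21 ± 0.32 with Dex+E2, 1.29 ± 0.35 with Dex, 1.52 ± 0.30 with E2 and 1.54 ± 0.26 with vehicle. Cxcl10 averaged -0.42 ± 0.55 with Dex+E2, -0.45 ± 0.55 with Dex, -0.10 ± 0.53 with E2 and 0.06 ± 0.61 with vehicle. Vcam1 averaged 1.84 ± 0.40 with Dex+E2 (n = 3), 1.83 ± 0.41 with Dex, 2.10 ± 0.41 with E2 and 2.11 ± 0.43 with vehicle.

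Il16 and Traf1 had the smallest p in the comparison of Dex with vehicle, without being called. Il16 had levels of -5.75, -5.40, -5.32 and -5.65 on the Dex arrays, against -5.08, -5.20, -4.79 and -4.86 on the vehicle arrays. It had -4.94, -4.93, -4.66 and -4.74 on the Dex+E2 arrays and -4.87, -4.80, -4.73 and -4.91 on the E2 arrays, so that all 4 Dex arrays lay below the other 12. The share of all genes set apart in this way is not given here. The Il16 difference was -0.55 ± 0.15 between Dex and vehicle (limma adjusted p = 0.451) and 0.71 ± 0.15 between Dex+E2 and Dex (limma adjusted p = 1.0). The interaction of Dex with E2 was 0.56 ± 0.21 (limma adjusted p = 0.999). The probe was well above background on 3 of the 4 Dex arrays, and under normexp the Dex difference was 0.05 and the interaction -0.68.

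Traf1 had levels of -5.24, -5.33, -5.0 and -5.60 on the Dex arrays, against -4.67, -5.05, -4.79 and -4.73 on the vehicle arrays, which overlapped by 1 array (-0.49 ± 0.15, limma adjusted p = 0.451). It had -5.02, -4.86, -4.67 and -4.72 on the Dex+E2 arrays and -4.72, -4.42, -4.51 and -4.53 on the E2 arrays, and was likewise uncalled for Dex+E2 minus Dex (0.48 ± 0.15), for Dex+E2 minus E2 (-0.27 ± 0.15) and for E2 minus vehicle (0.27 ± 0.15). Under normexp its Dex difference from vehicle was 0.08. Csf1 had levels of 2.43, 2.47, 2.69 and 2.40 on the Dex+E2 arrays and 2.48, 2.59, 2.61 and 2.61 on the E2 arrays, against 2.82, 3.00, 2.64 and 2.63 on the vehicle arrays. It differed by -0.27 ± 0.09 between Dex+E2 and vehicle (limma adjusted p = 0.715) and by -0.20 ± 0.09 between E2 and vehicle (0.979). On the Dex arrays it had 2.58, 2.56, 2.75 and 2.44.

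Ccl5 had levels of -4.86, -5.08, -4.97 and -4.90 on the Dex+E2 arrays, against -3.99, -4.07, -4.52 and -5.07 on the vehicle arrays, and differed by -0.54 ± 0.24 (limma adjusted p = 0.715). It was 0.73 higher under normexp. Tnfrsf1a had 3.25, 3.38, 3.14 and 3.22 on the Dex+E2 arrays, against 2.82, 3.03, 3.05 and 3.26 on the E2 arrays (0.21 ± 0.10, limma adjusted p = 1.0). Its interaction of Dex with E2 was 0.20 ± 0.15 (limma adjusted p = 0.999).

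Without Vehicle 4, E2 4, Dex 3 and Dex+E2 3, members were called in 3 of the 6 comparisons. Because these arrays were left out on a readout that moves with the members, these counts are no independent test. For Dex against vehicle 3 members were called, Relb (-0.54 ± 0.08), Cxcl10 (-1.03 ± 0.22) and Nfkbia (0.62 ± 0.13), against 432 genes or 2.43% of all. For Dex+E2 against vehicle 3 were called, Relb (-0.61 ± 0.08), Cxcl10 (-1.0 ± 0.22) and Csf1 (-0.39 ± 0.09), against 460 genes or 2.59%. For Dex+E2 against E2 2 were called, Relb (-0.61 ± 0.08) and Nfkbia (0.76 ± 0.14), against 343 genes or 1.93%. For the interaction, for Dex+E2 against Dex and for E2 against vehicle, 0 members and 0.0% of genes were called. Between Dex+E2 and Dex, Relb then differed by -0.07 ± 0.08 and Cxcl10 by 0.03 ± 0.22. Between E2 and vehicle, Relb differed by 0.00 ± 0.08 and Cxcl10 by -0.20 ± 0.22.

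**Figure D4:**
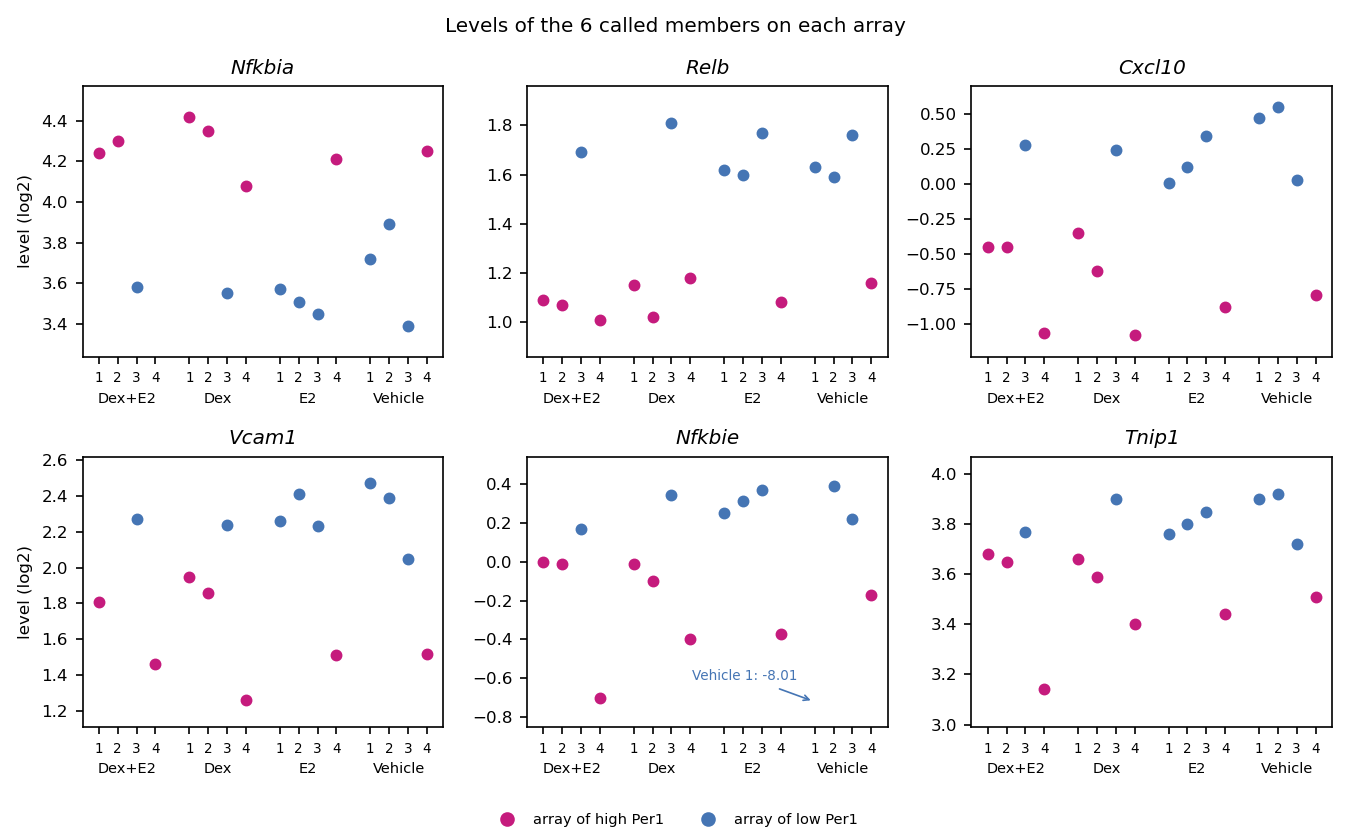
Levels (y axis, log2 after subtraction of each array's 75th percentile) of the 6 called genes on each array (x axis, arrays 1 to 4 of each label). Colour marks the arrays of high and of low Per1. Nfkbia is high and the other 5 are low on arrays Vehicle 4 and E2 4, and the opposite holds on Dex 3 and Dex+E2 3. Flagged spots of Nfkbia and Vcam1 are not drawn.

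Set out by Per1, 6 of the 22 genes had no overlap between the 8 arrays with high Per1 and the 8 with low Per1. Over all genes this was so for 725, or 4.08%. The split uses a readout of the same arrays, so the values are a description. Nfkbia had a lowest level of 4.08, a median of 4.25 and a highest of 4.42 on 7 high-Per1 arrays, against 3.39, 3.56 and 3.89 on the 8 low-Per1 arrays. With its flagged spot of 3.74 counted, it would overlap. Relb ran over 1.01, 1.09 and 1.18 on the high-Per1 arrays, against 1.59, 1.66 and 1.81 on the low-Per1 arrays. Cxcl10 ran over -1.08, -0.70 and -0.35 with high Per1, against 0.01, 0.26 and 0.55 with low Per1. Il6, the sixth gene without overlap beside Vcam1 and Tnip1, ran over -5.49, -4.89 and -4.66 with high Per1, against -4.50, -4.36 and -3.93 with low Per1. Vcam1 lay between 1.26 and 1.95 with high Per1, against 2.05 to 2.47 with low Per1, and Tnip1 between 3.14 and 3.68, against 3.72 to 3.92. Nfkbie lay between -0.70 and 0.00 with high Per1, against 0.17 to 0.39 on 7 of the low-Per1 arrays and -8.01 on Vehicle 1. Rela, Tlr2 and Tnfrsf1b were among the 16 genes that overlapped.

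Within the arrays of high Per1, several members were lower on the arrays numbered 4 than on arrays 1 and 2. Cxcl10 lay between -1.08 and -0.79 on the 4 arrays numbered 4 and between -0.62 and -0.35 on arrays 1 and 2 of Dex+E2 and Dex. Vcam1 lay between 1.26 and 1.52 and between 1.81 and 1.95 on the same arrays, and Tnip1 between 3.14 and 3.51 and between 3.59 and 3.68. Tlr2 (-0.44 to 0.17 and 0.31 to 0.40), Tnfaip3 (-0.11 to 0.02 and 0.20 to 0.39) and Nfkbie (-0.70 to -0.17 and -0.10 to 0.00) were set apart likewise. So were Cxcl1 and Nfkbiz. Relb did not separate in this way, at 1.01 to 1.18 and 1.02 to 1.15. These arrays differ in slide and number as well as in label, and the difference was not tested. The share of all genes set apart in this way is not given here. The pattern is therefore not shown to be particular to these genes.

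Of 90 further genes of the pathway, 64 were tested. Between arrays 4 and 3, 4 were called higher and 1 lower, against 1.6% and 1.5% of all genes, with a median difference of -0.09 over the 64. The 3 with the smallest p were Cxcl12, Ier3 and Birc2. Cxcl12, a chemokine of stromal cells, had 3.16, 2.94, 3.47 and 3.1 on the arrays numbered 4 of Dex+E2, Dex, E2 and vehicle, against 2.00, 1.61, 1.76 and 1.57 on the arrays numbered 3 (1.43 ± 0.10, limma adjusted p = 0.00174). Ier3, an immediate early gene and NF-kB target, had -0.51, -0.78, -0.65 and -0.66 on the arrays numbered 4, against 0.08, -0.04, -0.08 and -0.06 on the arrays numbered 3 (-0.62 ± 0.06, limma adjusted p = 0.0061). Birc2, the ubiquitin ligase cIAP1, differed by 0.56 ± 0.06 (limma adjusted p = 0.00891). The cytokine receptors Osmr and Lifr were also called, at 0.41 ± 0.06 and 0.40 ± 0.07. On the arrays numbered 1 and 2, 3 were called higher and 1 lower between Dex and vehicle, against 2.36% of all genes in either direction. Between Dex+E2 and E2 on these arrays, 4 were called higher and 1 lower, against 3.26% of all genes. Cxcl12 differed there by 1.38 ± 0.07 and 1.45 ± 0.07, and Ier3 by -1.0 ± 0.11 and -0.61 ± 0.11. So Cxcl12 was called in the opposite direction to Cxcl10 wherever both were called.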

How the data were processed

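Each of 16 arrays measured Cy3-labelled cRNA from total RNA. Spots were quantified with Agilent Feature Extraction 12, per the submitters' processing notes. The processed signal is a background-subtracted intensity, per the file headers. A deposited series table of log2 values served as an alternative. How they were made is not given in the sources used, each column had a median of 4.698, and each matched its own array better than any other (r of 0.999 or more).

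Control spots and outlier-flagged spots (88 to 296 per array) were left out, spots of a probe were averaged, and each array was scaled to its 75th percentile on the log2 scale. Probes were named through RefSeq accessions (28223 of 41174 probes), kept if 1 label or more had all 4 arrays well above background, and the brightest kept probe stood for a gene. Differences were tested with limma 3.58.1 in R 4.3.3 (lmFit, eBayes with trend, two-sided, adjusted p under 0.05 by Benjamini-Hochberg over 17771 genes, of which 4740 had no symbol). Arrays 4 and 3 were compared with the label as a block. The 2 comparisons on arrays 1 and 2 shared a fit. Members with per-array values were those called in any comparison, the 8 with the smallest p between arrays 4 and 3, the 2 with the smallest p in each comparison of labels, and the 3 with the highest mean level. The members and lists were chosen with earlier results of these data known. Alternatives were normexp (from median signals, as the mean signal is not used here), quantile normalization, the deposited table, no filter on dim probes, the mean over probes, no variance trend, slide, replicate and label blocks, single arrays left out and, added after seeing the data, flagged spots kept. The number of arrays limits the precision. Deviations of same-numbered arrays from their label means correlated at 0.11 to 0.45 for the arrays numbered 4, at -0.16 to 0.46 for number 1, -0.08 to 0.16 for number 2 and -0.09 to 0.31 for number 3. Not every pair exceeded 0.1, and no label or protocol names a block, so the number was a block only in an alternative.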

Additional observations from a re-analysis of the deposited data

Results flagged for a closer look

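In 10 of 86 groups of 4 arrays of 1 label, the highest or lowest array stood apart from the nearest other array by more than Dixon's critical share of the group's range. Chance alone flags about 1 in 20 groups. Nfkbie on Vehicle 1 read -8.01, against -0.17 on the nearest array. On the arrays numbered 4, Nfkbia read 4.21 on E2 4 (nearest 3.57), Nfkbie -0.37 on E2 4 (nearest 0.25), Tnfaip3 -0.08 on E2 4 (nearest 0.35) and 0.00 on Dex 4 (nearest 0.33), and Tlr2 -0.03 on Dex 4 (nearest 0.31) and -0.44 on Dex+E2 4 (nearest 0.28). Relb read 1.69 on Dex+E2 3 (nearest 1.09). Smaller gaps were those of Csf1 on E2 1 (2.48, nearest 2.59) and Nfkbib on Dex 1 (1.83, nearest 1.76).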

How the results depend on the processing

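Of 164 recomputed counts, 144 kept their side and size. Of 414 recomputed values of 26 named member results, 363 kept their direction and side of the threshold, 39 lost the call, 7 gained it and 5 turned. Taking the replicate number as a block gave 0 called members in all 6 comparisons of labels and changed no call. Deviations of the arrays numbered 4 correlated at over 0.1 in every pair, and 9 of 16 arrays correlated best with an array of their own number. Within one slide, 0 members were called in the 4 comparisons that a slide allows, and all 4 calls of Dex against vehicle on arrays 1 and 2 were lost. Without arrays Vehicle 4, E2 4, Dex 3 and Dex+E2 3, the counts were 3 for Dex against vehicle, 3 for Dex+E2 against vehicle and 2 for Dex+E2 against E2. Without all arrays numbered 3 and 4, they were 4, 5 and 2 in the same order. Over all genes, 419 (2.36%) were then called for Dex against vehicle and 579 (3.26%) for Dex+E2 against E2. The count over all genes for Dex+E2 against vehicle is not given here, so its 5 calls stand without a background. Between arrays 4 and 3, the count was 3 with no filter on dim probes (236 of all genes, against 552) and 2 to 6 with 1 pair left out. On the arrays numbered 1 and 2, leaving out 1 array gave 0 to 7 for Dex against vehicle and 0 to 1 for Dex+E2 against E2. All genes called for Dex against vehicle then ran from 28 without Dex 2 to 2239 without Vehicle 1. With the normexp correction, 2 members were called for Dex against vehicle, Nfkbie higher with Dex and Cxcl10 lower. The vehicle arrays there included Vehicle 1, where the Nfkbie spot was not well above background. For Dex+E2 against E2 the count was 11 members, where 9682 of all genes were called, against 579. The split of all calls for Dex against vehicle was then 163 higher and 45 lower, against 209 and 210. The median of all genes for Dex+E2 against E2 was -0.17 under normexp, against 0.06, and for Dex against vehicle 0.10, against -0.03. Values that turned under normexp were Relb at 0.13 for Dex+E2 against E2 on the arrays numbered 1 and 2, Il16 at 0.05 and Traf1 at 0.08 for Dex against vehicle, Ccl5 at 0.73 for Dex+E2 against vehicle and Il16 at -0.68 for the interaction. Under normexp 1 member, Cxcl10, had no overlap between arrays of high and low Per1, against 6, and the share over all genes under normexp is not given here. The cause was not tested. Between arrays 4 and 3, Relb (-0.66 to -0.49) and Cxcl10 (-1.29 to -0.64) were called in all 12 alternatives, Vcam1 in 10, Nfkbie in 8, Nfkbia in 6 and Tnip1 in 5, while Il6 was called in 3 and Tnfaip3 in 2. The arrays numbered 1 and 2 had 11 alternatives, among them fits with 1 array left in a group. For Dex against vehicle, Cxcl10 was called in 10 of these, Nfkbia and Relb in 8 each and Vcam1 in 3. For Dex+E2 against E2, Nfkbia was called in 10 and Relb in 6. Signal over background limits the 10 dim genes, and a bound could be had only for Ccl2 and Rel.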
